A study of Mus musculus with 8 samples.

Results

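The genes described here make cholesterol, sense it and move it. They comprise 29 listed mouse genes, of which 28 were matched to a row of the deposited value table whose platform annotation gives exactly 1 gene symbol; Acat2, a cytosolic thiolase at the start of the pathway, had no such row here and was not analysed. All 28 lay above the brightness filter, among 15174 genes tested of 19938 with a row. Idi1 and Fdft1 each had 2 rows, and the brighter stood for the gene. Transcripts were measured on 8 single-colour Affymetrix whole-transcript arrays, 1 for each RNA sample of full-thickness skin collected from embryos at stage E17.5, late in mouse gestation. The first group, labelled PPARgamma null (PpargΔ/Δ), and the second, labelled PPARgamma wildtype and called control, held 4 arrays each, and both were of a mixed C57BL6/SV129 strain. The series text speaks of individual RNAs; no Cre, deleted exon, litter or sex is given in the sources used here.

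PPARgamma, a nuclear receptor required to form fat cells, is the product of Pparg. The Pparg transcript did not mark the null label. Pparg read 9.14, 9.19, 9.19 and 8.98 on labelled-null arrays 1 to 4, against 8.79, 8.88, 9.04 and 9.06 on control arrays 1 to 4. The groups overlapped, and the difference was 0.18 (SE 0.077, 95% interval 0.01 to 0.35, unadjusted p = 0.0393); the deleted stretch is not given in the sources used here, so the probes may lie outside it. Cd36, a fatty acid transporter that PPARgamma activates in fat cells, averaged 8.90 ± 0.14 on labelled-null arrays and 9.82 ± 0.09 on control arrays (log2 values, SD, n = 4 each; limma adjusted p = 0.00585). Directions below are therefore those of the arrays labelled Pparg null. Keratins and collagens marked the tissue as skin: the mean of 6 basal epidermal markers was 10.85 to 10.95 on labelled-null arrays and 10.90 to 10.99 on control arrays, and that of 7 dermal fibroblast markers 11.75 to 11.91 on labelled-null arrays and 11.85 to 11.94 on control arrays. In bulk skin, fewer cells of a type and less RNA per cell cannot be told apart. All 8 arrays correlated with each other at r = 0.989 to 0.994 across 35556 transcript clusters. On the first principal component of genes outside the X and Y chromosomes, labelled-null array 4 stood apart at a score of 21.7, with control array 1 next at 8.62 and the other 6 between -9.02 and 3.12.

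Cells build cholesterol from acetyl-CoA through mevalonate, farnesyl diphosphate, squalene and lanosterol. When the endoplasmic reticulum holds little sterol, the escort protein SCAP carries SREBP transcription factors to the Golgi for cleavage, and the freed factor switches on most genes of the pathway together; INSIG proteins hold SCAP back when sterol is plentiful. Sterol from lipoproteins leaves the lysosome through NPC1 and NPC2, and surplus leaves the cell through the ABCA1 and ABCG1 transporters, which the oxysterol receptors LXR induce. The epidermis makes much of its own cholesterol and secretes it, with ceramides and fatty acids, into the permeability barrier, which forms in the mouse in the last days before birth.

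None of the 28 genes changed past the threshold in arrays labelled Pparg null. By limma, 0 of 28 had an adjusted p under 0.05, where 0.119% of all genes tested did (0.00659% higher and 0.112% lower in arrays labelled Pparg null), and 0 of 28 had an unadjusted p under 0.05, where 3.61% did. Every member had a limma adjusted p of 0.9995, and the unadjusted values ran from 0.0507 to 0.899. At an unadjusted p under 0.1, 5 of 28 lay higher in arrays labelled Pparg null and 1 lower, where 3.32% and 4.2% of all genes did. Differences ran from -0.11 (Ebp) to 0.27 (Msmo1) on the log2 scale, and no 95% interval reached beyond -0.40 or 0.57, short of 2-fold in either direction. Of the 28, 22 lay above control and 6 below, with a median log2 difference of 0.06; over all genes tested 49.7% lay above control, and the median was -0.0006. The enzymes of synthesis accounted for most of these, with 18 of 19 above control and a median of 0.08, while of the 9 sensing, transport and export genes 4 lay above and 5 below, with a median of -0.02. The difference between these classes was not tested. These counts moved when single arrays were left out. Without labelled-null array 4, 15 of 28 members and 12 of 19 synthesis genes lay above control. The median over the 28 was 0.02 without labelled-null array 2 and 0.11 without labelled-null array 3, and 0.04 without labelled-null array 4 or without control array 4. Over the 19 synthesis genes the median was 0.02 without labelled-null array 2 and 0.14 without labelled-null array 3. Of the 9 sensing, transport and export genes 6 lay above control without labelled-null array 3 (median 0.05) or without control array 2 (median 0.025). Without labelled-null array 3, 6 of 28 members had an unadjusted p under 0.05 and 0 an adjusted p under 0.05 by limma. All 6 were synthesis genes, and 584 of 15174 genes tested had an unadjusted p under 0.05 in that fit. With both arrays that stood apart left out, labelled-null array 4 and control array 1, 18 of 28 members and 15 of 19 synthesis genes lay above control, with a median of 0.05 over the 28.

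**Figure D1:**
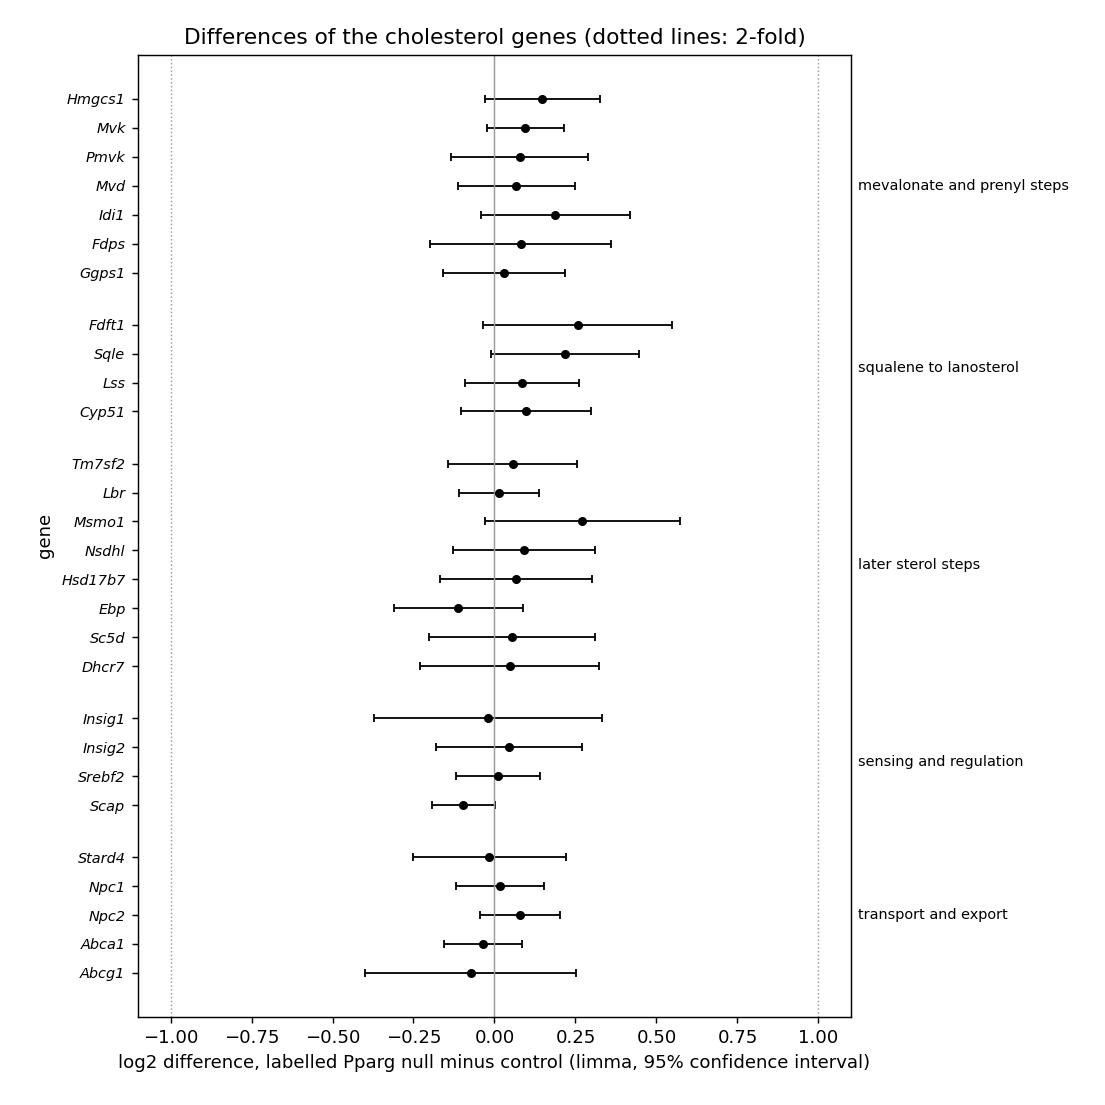
Log2 difference of each of the 28 genes, labelled Pparg null minus control (x axis), with its 95% confidence interval from limma, grouped by role down the page; n = 4 arrays per group. All but Ebp of the 19 synthesis genes lie right of 0, every interval includes 0, and none reaches the dotted lines at 2-fold.

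The first steps lead from acetyl-CoA to prenyl diphosphates. Hmgcs1 encodes the cytosolic HMG-CoA synthase, the enzyme that supplies the substrate of mevalonate formation. Hmgcs1 read 10.37, 10.59, 10.20 and 10.34 on labelled-null arrays 1 to 4, against 10.29, 10.19, 10.26 and 10.16 on control arrays 1 to 4. The groups overlapped, since labelled-null array 3 lay among the controls, and the difference was 0.15 (SE 0.079, 95% interval -0.03 to 0.33, unadjusted p = 0.0934). Idi1 encodes the isomerase that turns isopentenyl diphosphate into its reactive partner. Idi1 read 9.08, 9.28, 8.83 and 8.89 on labelled-null arrays 1 to 4, against 8.88, 8.75, 8.98 and 8.71 on control arrays 1 to 4. Labelled-null arrays 1 and 2 lay above all controls and arrays 3 and 4 among them, giving 0.19 (SE 0.10, 95% interval -0.04 to 0.42, unadjusted p = 0.0991); the second row of this gene differed by 0.19. Mvk, mevalonate kinase, varied least between arrays of these 3. Mvk read 8.78, 8.80, 8.74 and 8.88 on labelled-null arrays 1 to 4, against 8.64, 8.71, 8.68 and 8.79 on control arrays 1 to 4. Only control array 4 lay above any labelled-null value, and the difference was 0.09 (SE 0.053, 95% interval -0.02 to 0.21, unadjusted p = 0.104).

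The other genes of this stretch lay closer to control. Mvd, the decarboxylase that yields isopentenyl diphosphate, and Pmvk, phosphomevalonate kinase, differed by 0.07 and 0.08. Fdps, which makes farnesyl diphosphate, differed by 0.08 with an SD of 0.23 among labelled-null and 0.19 among control arrays. Ggps1, which draws farnesyl diphosphate off to geranylgeranyl diphosphate for protein prenylation, differed by 0.03. In all, 7 of 7 tested genes of this stretch lay above control with overlapping groups. Without labelled-null array 4, Pmvk and Ggps1 lay below control, at -0.0075 and -0.01, and Ggps1 did so without control array 4, at -0.0065.

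Squalene and lanosterol are made by the next enzymes. Fdft1, squalene synthase, commits farnesyl diphosphate to sterols. Fdft1 read 10.22, 10.59, 10.10 and 10.59 on labelled-null arrays 1 to 4, against 10.32, 10.20, 10.06 and 9.90 on control arrays 1 to 4. Labelled-null arrays 2 and 4 lay above every control array, and arrays 1 and 3 lay among the controls. The difference was 0.26 (SE 0.13, 95% interval -0.03 to 0.55, unadjusted p = 0.0776), and the second row of the gene differed by 0.28. Sqle, squalene epoxidase, adds the oxygen that later becomes the sterol hydroxyl. Sqle read 9.83, 10.13, 9.72 and 10.19 on labelled-null arrays 1 to 4, against 9.83, 9.73, 9.79 and 9.66 on control arrays 1 to 4. It showed the same order, with arrays 2 and 4 high and array 3 near the lowest controls, and a difference of 0.22 (SE 0.10, 95% interval -0.01 to 0.45, unadjusted p = 0.0607).

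Lss closes the ring system to lanosterol, and Cyp51 removes a methyl group from it. Lss read 8.66, 8.84, 8.47 and 8.62 on labelled-null arrays 1 to 4, against 8.62, 8.61, 8.56 and 8.45 on control arrays 1 to 4. The labelled-null arrays thus held both the highest value, on array 2, and a value near the lowest, on array 3. Cyp51 read 8.64, 8.87, 8.38 and 8.68 on labelled-null arrays 1 to 4, against 8.53, 8.56, 8.56 and 8.52 on control arrays 1 to 4. The 4 controls of Cyp51 lay within a narrow band (SD 0.019), while labelled-null values fell on both sides of it (SD 0.20). The differences were 0.08 (SE 0.079, 95% interval -0.09 to 0.26, unadjusted p = 0.308) for Lss and 0.10 (SE 0.090, 95% interval -0.10 to 0.30, unadjusted p = 0.306) for Cyp51.

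The later enzymes strip methyl groups from lanosterol and move its double bonds. Msmo1, the methyl sterol oxidase, had the largest difference of the 28 genes, 1.21-fold. Msmo1 read 9.47, 9.80, 9.27 and 9.83 on labelled-null arrays 1 to 4, against 9.34, 9.37, 9.50 and 9.07 on control arrays 1 to 4. Labelled-null arrays 2 and 4 again lay above all controls, arrays 1 and 3 lay among them, and control array 4 was the lowest of the 8. The difference was 0.27 (SE 0.13, 95% interval -0.03 to 0.57, unadjusted p = 0.073). Nsdhl acts directly after it, and its gene lies on the X chromosome. Nsdhl read 8.94, 9.19, 8.73 and 9.02 on labelled-null arrays 1 to 4, against 8.98, 8.97, 8.84 and 8.72 on control arrays 1 to 4. Labelled-null arrays 2 and 4 were above the controls and arrays 1 and 3 among them, and the difference was 0.09 (SE 0.098, 95% interval -0.13 to 0.31, unadjusted p = 0.376). Ebp, the X-linked sterol isomerase, was the exception among synthesis genes. Ebp read 8.33, 8.47, 8.27 and 8.64 on labelled-null arrays 1 to 4, against 8.69, 8.56, 8.42 and 8.48 on control arrays 1 to 4. Its difference was -0.11 (SE 0.089, 95% interval -0.31 to 0.09, unadjusted p = 0.241), with labelled-null arrays 1 and 3 below every control and array 4 near the top of them.

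Hsd17b7, the reductase that completes demethylation, differed by 0.07, and the sterol desaturase Sc5d and the terminal reductase Dhcr7 by 0.05 and 0.05. Tm7sf2 and Lbr encode sterol reductases that can stand in for each other, Lbr also being a nuclear lamina receptor, and they differed by 0.06 and 0.01. The SD among labelled-null arrays exceeded that among controls for all 8 of these later genes, and was 0.28 against 0.10 for Dhcr7. Without labelled-null array 4, Dhcr7, Sc5d, Lbr and Tm7sf2 lay below control, at -0.07, -0.04, -0.01 and -0.0044, and without labelled-null array 2 Hsd17b7 did, at -0.03. Lbr also lay below control without control array 2 or 3, at -0.0021 and -0.0027.

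**Figure D2:**
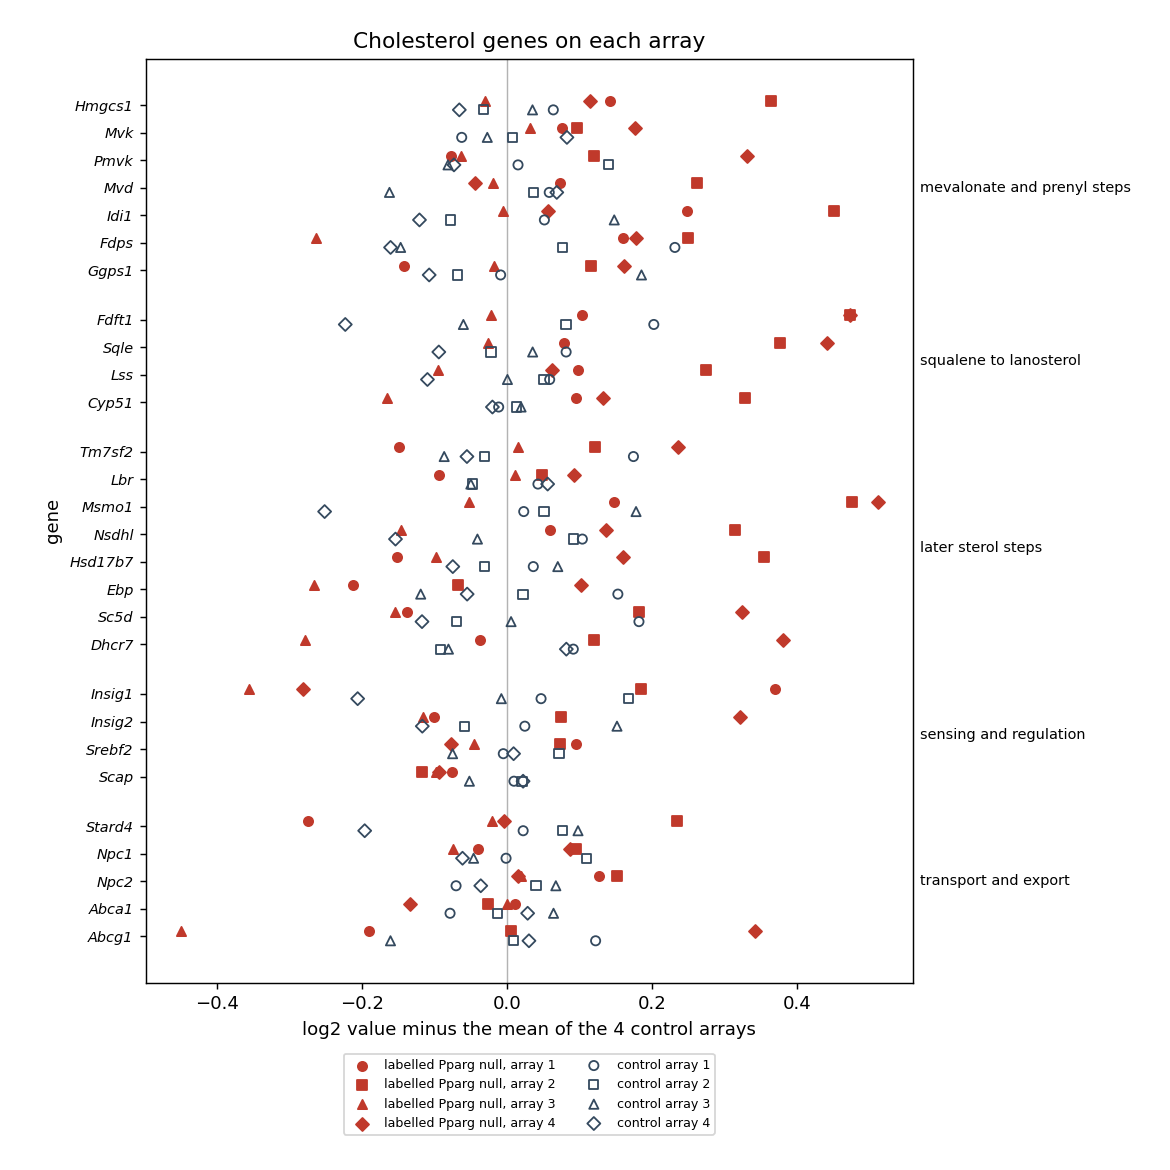
Log2 value of each gene on each array minus the mean of its 4 control arrays (x axis), with filled red symbols for the arrays labelled Pparg null, plotted just above open symbols for control arrays, and a symbol shape for each array number. Labelled-null arrays 2 and 4 (squares and diamonds) lie to the right for most synthesis genes and array 3 (triangles) to the left; Scap alone has groups that do not overlap.

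The synthesis genes largely shared an order of arrays that cut across the labels. Of the 19, 9 had their highest value on labelled-null array 2 and 8 on labelled-null array 4, which held the highest value of 11.3% and 22.1% of all genes tested. Fdft1 read 10.5924 on both of these arrays and was counted under array 2. Labelled-null array 2 lay above labelled-null array 3 for 19 of 19, where 57.2% of all genes did so. The lowest value fell on control array 4 for 7 of the 19 and on labelled-null array 3 for 5, against 13.4% and 13.5% of all genes. The median of the 19, relative to each gene's mean over 8 arrays, was -0.02, 0.23, -0.14 and 0.14 on labelled-null arrays 1 to 4, against 0.02, -0.06, -0.06 and -0.12 on control arrays 1 to 4. The labelled-null group thus held both the highest 2 and the lowest of these 8 medians. On labelled-null array 1 the roles parted. The median there was 0.04 for the mevalonate and prenyl steps, 0.01 for squalene to lanosterol and -0.13 for the later sterol steps. For 18 of the 19 the SD was larger among labelled-null arrays, as it was for 56.5% of all genes, and the median SD was 0.19 among labelled-null and 0.11 among control arrays (log2 values, n = 4 each). Over all genes these medians were 0.095 and 0.088. The wider spread was not particular to the synthesis genes. The SD was also larger among labelled-null arrays for 8 of the 9 sensing, transport and export genes. It was so for 47 of the 59 tested genes of the neighbouring pathways described below. Their median SD was 0.11 among labelled-null and 0.07 among control arrays.

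Cell type markers did not follow this order on every array. The mean of 6 suprabasal epidermal markers was highest on labelled-null array 4, at 12.43, against 12.12 to 12.21 on the other labelled-null arrays and 12.03 to 12.29 on control arrays; labelled-null arrays 2 and 3, far apart for the synthesis genes, read 12.20 and 12.21. For 6 skeletal muscle markers the mean read 11.98, 11.67, 12.08 and 11.55 on labelled-null arrays 1 to 4, against 11.69, 11.94, 11.86 and 11.83 on control arrays 1 to 4. Labelled-null arrays 2 and 4, high for the synthesis genes, were thus the lowest for muscle. For 7 inner root sheath and hair shaft markers the mean ran from 6.48 to 7.26 on labelled-null arrays and from 6.90 to 7.72 on control arrays, lowest on labelled-null array 4, and all 7 lay below control with 0 past the threshold. The mean of 6 white adipocyte markers separated the groups, from 6.52 to 6.70 on labelled-null arrays and from 7.08 to 7.45 on control arrays. Among the single markers, the groups overlapped for Cidec and Lep. All 4 tested markers lay below control, 2 of them past an adjusted p of 0.05 by limma, and Adipoq and Lep lay under the brightness filter. For 5 sebocyte markers the mean ran from 5.98 to 6.07 on labelled-null arrays and from 6.31 to 6.39 on control arrays; both tested ones lay below control, 1 of them past the threshold, and 3 lay under the filter. The part of these cell types in the values of the cholesterol genes was not tested.

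**Figure D3:**
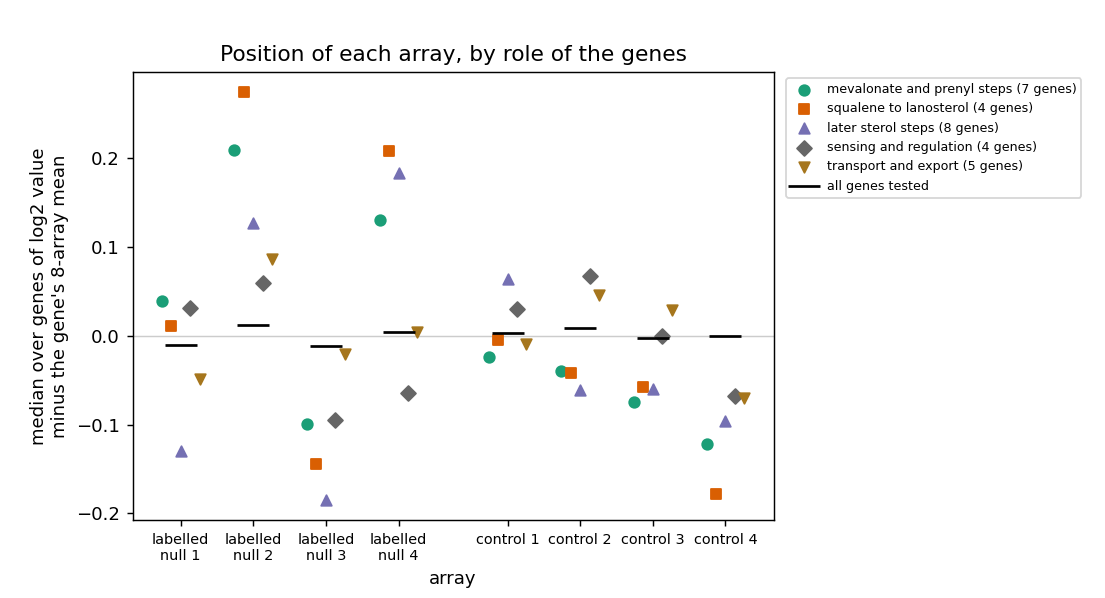
Median over the genes of each role of the log2 value minus the gene's mean over 8 arrays (y axis), for each array (x axis, the 4 labelled Pparg null left of the 4 controls), with black bars for all genes tested. The groups of synthesis genes are high on labelled-null arrays 2 and 4 and low on labelled-null array 3 and control array 4, while the bars for all genes stay near 0.

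Promoter sequences of these genes were also described. The genes were chosen by pathway, and SREBP and NF-Y are known to act at its genes, so shared motifs are not independent of that choice. RefSeq promoters (assembly GRCm38.p6) were found for 23 of the 29 listed genes, some with more than 1, and for 11945 tested genes. Fdps, Fdft1, Sqle, Stard4, Npc1 and Abcg1 had none and were not searched. The 250 bases before each start were searched on both strands for 5 motifs. The CCAAT box (CCAAT), bound by the factor NF-Y, which works beside SREBP at sterol genes, stood in at least 1 promoter of 20 of the 23 genes (87%), against 39.1% of tested genes; Abca1, Acat2 and Scap had none. The GC box CCGCCC, bound by Sp1, stood in 91.3% of these genes and 59.6% of tested genes. Of the 23 genes searched, the sterol regulatory element core TCACNCCAC was found in Hmgcs1 alone, or 4.35% against 1.3% of tested genes. Its shorter form CACCCCAC, which can overlap it, was found in Hmgcs1 and Acat2, or 8.7% against 3.58%. The E box TCACNTGA was found in Insig2 alone, or 4.35% against 3.79%. Matches are descriptions of these windows and not of binding. The promoter of Msmo1, the gene with the largest difference, is shown with that of Hmgcs1, which holds both kinds of element, and 1 of 2 overlapping promoters of Scap, which holds neither; capitals mark CCAAT boxes (as ATTGG on the opposite strand) and the sterol regulatory element core. They lie at chr8:64733579-64733828, minus strand, at chr13:119690101-119690350, plus strand and at chr9:110333038-110333287, plus strand, in that order, and each reads 5′ to 3′ toward the gene.
Msmo1: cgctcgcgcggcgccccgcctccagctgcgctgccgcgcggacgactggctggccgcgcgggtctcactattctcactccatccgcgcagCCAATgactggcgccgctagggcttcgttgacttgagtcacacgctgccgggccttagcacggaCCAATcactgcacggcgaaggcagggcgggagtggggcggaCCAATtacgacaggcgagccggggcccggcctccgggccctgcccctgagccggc
Hmgcs1: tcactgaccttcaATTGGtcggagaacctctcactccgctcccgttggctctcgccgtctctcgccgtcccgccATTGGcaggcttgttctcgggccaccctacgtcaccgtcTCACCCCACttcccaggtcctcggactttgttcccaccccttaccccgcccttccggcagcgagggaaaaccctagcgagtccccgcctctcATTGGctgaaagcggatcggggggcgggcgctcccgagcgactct
Scap: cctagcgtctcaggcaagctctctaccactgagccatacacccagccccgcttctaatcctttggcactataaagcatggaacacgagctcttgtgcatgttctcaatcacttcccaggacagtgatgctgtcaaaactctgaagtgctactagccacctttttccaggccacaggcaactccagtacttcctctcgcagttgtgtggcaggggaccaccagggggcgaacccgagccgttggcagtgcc
Msmo1 and Hmgcs1 each hold 3 CCAAT boxes in this window. Whether these motifs bear on the order of the arrays was not tested.

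Scap, the sterol-sensing escort of SREBP, was the 1 member whose groups did not overlap. Scap read 8.82, 8.78, 8.80 and 8.80 on labelled-null arrays 1 to 4, against 8.90, 8.91, 8.84 and 8.92 on control arrays 1 to 4. All labelled-null values lay below all controls, by a small margin, with a difference of -0.10 (SE 0.043, 95% interval -0.19 to 0.0004, limma unadjusted p = 0.0507 and adjusted p = 0.9995), or 0.935-fold. Groups were separate for 1 of 28 members and for 2.45% of all genes tested. Separation with the labelled-null arrays lower occurred in 1 of 28 members and 1.67% of all genes tested; with the labelled-null arrays higher it occurred in 0 of 28 members and 0.784% of genes. The difference of Scap stayed between -0.11 and -0.09 when any 1 array was left out.

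The other regulators lay close to control, with overlapping groups. Srebf2 encodes SREBP2, the main activator of the synthesis genes, and averaged 10.06 ± 0.09 on labelled-null arrays and 10.05 ± 0.06 on control arrays (log2 values, SD, n = 4 each). The difference of 0.01 was smaller than either SD, and it turned negative without labelled-null array 1 or 2 or without control array 3. Insig1, which is itself an SREBP target, had the largest SD among labelled-null arrays of the 28, 0.35. Its values ran from 8.86 to 9.58 on labelled-null arrays and from 9.01 to 9.38 on control arrays, with a difference of -0.02. Insig1 was highest on labelled-null array 1 and low on labelled-null array 4, unlike most synthesis genes. Like them, it was higher on labelled-null array 2 (9.40) than on labelled-null array 3 (8.86), its lowest array. Insig2 differed by 0.04, and its highest value, 10.06, was on labelled-null array 4. Without that array Insig2 lay below control, at -0.05, and Insig1 above, at 0.07; Insig1 also lay above control without labelled-null array 3 or control array 2, at 0.09 and 0.04.

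Transport and export genes also stayed close to control. Npc2 is the soluble lysosomal protein that hands cholesterol to NPC1. Npc2 read 9.35, 9.37, 9.24 and 9.24 on labelled-null arrays 1 to 4, against 9.15, 9.26, 9.29 and 9.19 on control arrays 1 to 4. Labelled-null arrays 1 and 2 lay above every control and arrays 3 and 4 among them, and the difference was 0.08 (SE 0.055, 95% interval -0.05 to 0.20, unadjusted p = 0.191). Npc1, the membrane partner, differed by 0.02, and Stard4, a cytosolic sterol carrier that SREBP2 induces, by -0.02. The sign of Npc1 turned without labelled-null array 2 or 4 or control array 4, and that of Stard4 without labelled-null array 1 or control array 2 or 3. Abca1, which passes cholesterol to apolipoproteins, averaged 9.06 ± 0.07 on labelled-null arrays and 9.10 ± 0.06 on control arrays (log2 values, SD, n = 4 each), a difference of -0.04. Abcg1, which passes it to HDL particles, ran from 7.22 to 8.01 on labelled-null arrays and from 7.51 to 7.79 on control arrays, with a difference of -0.07 and 0.05 without labelled-null array 3.

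Neighbouring pathways were described with lists drawn up from general knowledge, none of whose genes is a member. Of 66 such genes 59 were tested, 26 above and 33 below control; by limma 0 passed an adjusted p of 0.05 and 2 had an unadjusted p under 0.05, a share near the 3.61% of all genes tested. Those 2 stand in the list of SREBP processing and sterol sensing, in which 2 of 9 tested genes lay above control and 7 below (median -0.06). Nr1h3 encodes LXR alpha, an oxysterol receptor that PPARgamma is known to induce in macrophages. Nr1h3 read 6.34, 6.14, 6.18 and 6.31 on labelled-null arrays 1 to 4, against 6.44, 6.40, 6.41 and 6.51 on control arrays 1 to 4. It was dim, below the median of every array, and did not pass the alternative filter at the 50th percentile. All labelled-null values lay below all controls, as they did for 1.67% of all genes tested, with a difference of -0.20 (SE 0.059, 95% interval -0.33 to -0.06, unadjusted p = 0.00809) and a limma adjusted p of 0.997. Srebf1, the SREBP of fatty acid synthesis and an LXR target, showed the same separation. Srebf1 read 8.67, 8.67, 8.61 and 8.58 on labelled-null arrays 1 to 4, against 8.70, 8.82, 8.77 and 8.78 on control arrays 1 to 4. Its difference was -0.14 (SE 0.049, 95% interval -0.25 to -0.03, unadjusted p = 0.0189), with a limma adjusted p of 0.9995. Mylip, an LXR target that marks lipoprotein receptors for degradation, differed by -0.11 with overlapping groups.

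Among 9 lipogenic targets of SREBP1, 8 lay below control and 1 above (median -0.02). Scd1, a fatty acid desaturase, differed by -0.20, Fasn, fatty acid synthase, by -0.08 and Fads1, another desaturase, by -0.07, each with overlapping groups and a limma adjusted p of 0.9995. Labelled-null array 2 exceeded labelled-null array 3 for all 9 of these genes as well. Genes of oxysterol, bile acid and sulphate metabolism lay above control in 5 of 8 (median 0.08). Ch25h, which makes an oxysterol from cholesterol, differed by 0.19, the sterol hydroxylase Cyp27a1 by 0.19 and Cyp39a1, an oxysterol hydroxylase, by 0.08. Their unadjusted p-values by limma were 0.0531, 0.0723 and 0.12. Ch25h was also dim, below the median of every array.

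The lists of acetyl-CoA supply (2 of 5 above control, median -0.01), isoprenoid branches (7 of 11, median 0.0031) and uptake, storage and transfer (6 of 13, median -0.0059) lay near 0. In them the smallest p-values belonged to Slc25a1, the citrate carrier (-0.05), with Acly, ATP citrate lyase (0.06), and Acat1, a mitochondrial thiolase (-0.02); to Pdss2, of coenzyme Q synthesis (0.11), with Fnta, a farnesyltransferase subunit (0.06), and Nus1, of dolichol synthesis (-0.03); and to Nceh1, a cholesteryl ester hydrolase (0.18), with the oxysterol-binding Osbp (-0.07) and Stard3, a late endosomal sterol carrier (-0.05). Of 4 other export genes 3 lay above control. Abca2, a lipid transporter, lay below every control array on all 4 labelled-null arrays before rounding, with 7.8207 as the highest labelled-null and 7.8229 as the lowest control value. Such separation was seen for 3 of 59 tested neighbouring genes (Nr1h3, Srebf1 and Abca2) and 1.67% of all genes tested. The opposite separation was seen for 0 of 59 and 0.784%. Abca2 read 7.76, 7.69, 7.75 and 7.82 on labelled-null arrays 1 to 4, against 7.82, 7.84, 7.84 and 7.92 on control arrays 1 to 4. Its difference was -0.10 (SE 0.048, 95% interval -0.21 to 0.01, unadjusted p = 0.0628). Abca5 and Abca7 differed by 0.10 and 0.02.

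**Figure D4:**
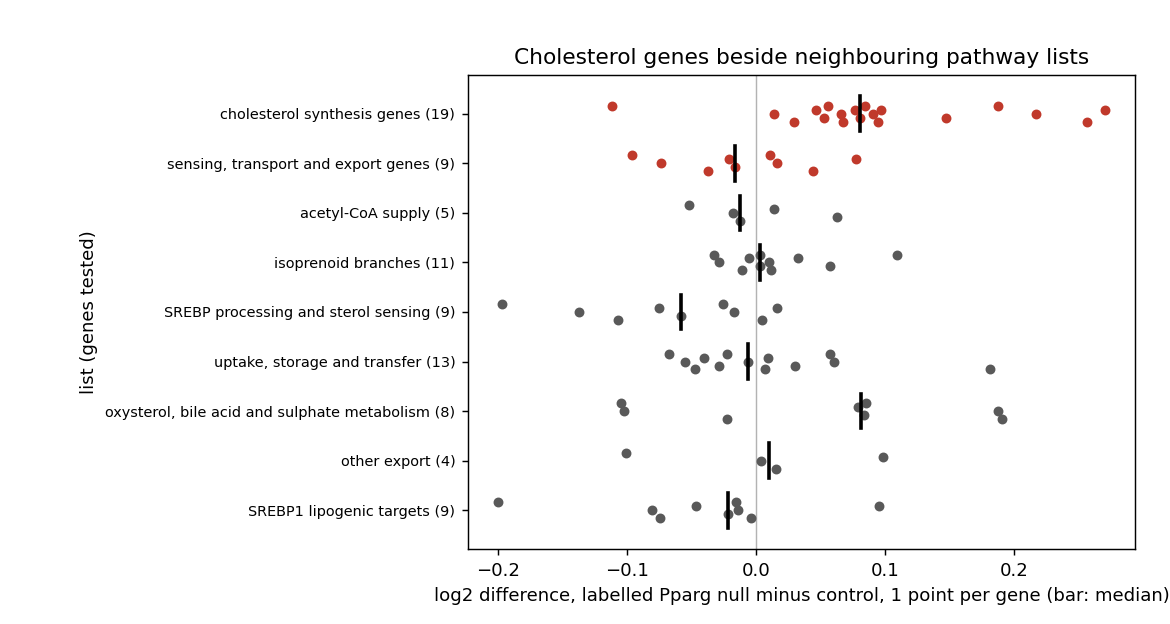
Log2 difference, labelled Pparg null minus control (x axis), of each tested gene of the 19 synthesis genes and the 9 sensing, transport and export genes (red) and of 7 neighbouring lists (grey), with a bar at each median and the number of genes in brackets. The synthesis genes centre at 0.08 with 18 of 19 right of 0, and the lipogenic targets of SREBP1 have 8 of 9 left of 0.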

How the data were processed

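Skin RNA was extracted with Trizol, and amplified and labelled with whole-transcript kits, per the labels' protocols. RMA and Affymetrix Expression Console are the tools that the submitters' processing notes name for the deposited log2 values, without versions or an annotation build. RMA equalizes the distributions of arrays, which hides any change common to all transcripts, and it summarizes probes per transcript cluster, so values of different genes are not compared. The arrays' medians lay between 6.93 and 6.96, and the 4 arrays per group limit the precision.

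Of 35556 transcript clusters, 21789 had 1 gene symbol in the platform annotation, 1621 had several and 12146 were listed with none. Symbols were checked through the gene ID against RefSeq (GRCm38.p6) for 21698, with none altered. Clusters above the 30th percentile of their array on at least 4 of 8 arrays were tested, and each gene was read from its brightest cluster. Differences are labelled Pparg null minus control, from limma 3.58.1 (R 4.3.3; lmFit, eBayes, two-sided, Benjamini-Hochberg over 15174 genes, threshold 0.05), without covariates. The labels do not say whether the RNAs came from separate litters, so p-values measure the spread between these samples.

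The genes and lists were chosen with earlier results of these data known. Values on every array are given for the 12 members with the smallest unadjusted p, which include the first of each role and Scap, and for few others; of each neighbouring list the 3 genes with the smallest p are named, and Acat2, Adipoq and Lep are named outside this rule. The alternatives were other filters, array weights, a trended and robust prior, cyclic loess, centring on array medians, the replicate number as a block, the mean of a gene's clusters, thresholds of 0.1 and 0.01, and leaving out each array; leaving out both control array 1 and labelled-null array 4 was chosen after seeing the data.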

Additional observations from a re-analysis of the deposited data

Results flagged for a closer look

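In 3 of 102 groups of 4 values (28 cholesterol genes, 21 genes of neighbouring lists, Pparg and Cd36, each in both groups of arrays) a single array lay apart from the other 3; chance gives about 1 in 20 groups, or 5 here. All 3 were low values on control array 3. Mvd, the decarboxylase of the mevalonate pathway, read 7.59 there and 7.78 to 7.82 on the other controls (gap of 0.859 of the group's range). Scap read 8.84 there and 8.90 to 8.92 on the others (0.83), still above every labelled-null value. The citrate carrier Slc25a1 read 9.05 there and 9.20 to 9.22 on the others (0.847).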

How the results depend on the processing

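By limma, 0 of 28 cholesterol genes passed an adjusted p of 0.05 in the 17 other fits, and 445 of 476 of their differences kept the direction first reported. Part of that count could not have turned. The other filters, the trended and robust prior and the replicate block left every member's difference as it was. The mean of a gene's clusters changed it for Idi1 and Fdft1 only. The 15 members that never turned include Mvk, Fdft1, Sqle, Msmo1, Ebp and Scap, and others whose size moved: with 1 array left out, Mvd ran from 0.0027 to 0.10, Nsdhl from 0.016 to 0.17, Cyp51 from 0.020 to 0.18, Lss from 0.021 to 0.14, Fdps from 0.025 to 0.20, Hmgcs1 from 0.076 to 0.21 and Idi1 from 0.10 to 0.25, each lowest without labelled-null array 2. At a limma unadjusted p under 0.05 the count of members was 0 as reported, where 548 of 15174 genes tested had such a p. It was 1 with a trended and robust prior (520 genes), with cyclic loess (576) or with the filter at the 50th percentile (389 of 11468). With array weights it was 3 (678 genes). With 1 array left out it was 6 without labelled-null array 3 (584 genes). It was 1 without labelled-null array 1 (602) or 4 (675), or without control array 1 (635) or 3 (541), and 0 without any other array. Over all genes tested, 18 were called; the count was 3 at a threshold of 0.01, and 3 to 15 when 1 array was left out. Arrays of the same number did not deviate together (r = -0.31, 0.20, 0.05 and -0.03 for numbers 1 to 4, and 0 arrays correlated best with their own number), so the numbers were not used as pairs; whether arrays share a litter or day was not tested. With the replicate block, 1 gene of all and 0 members were called. Array weights turned Insig1 to 0.022 and Abca7 to -0.021. With labelled-null array 4 and control array 1 both left out, a fit chosen after seeing the data, Pmvk was -0.0024, Ggps1 -0.018, Dhcr7 -0.035, Insig1 0.082, Insig2 -0.039, Npc1 -0.0073, Fnta -0.012, Abca7 -0.0043 and Fads1 0.0044. Leaving out 1 array at a time, differences crossed 0 for Pmvk (-0.0075 to 0.13), Ggps1 (-0.015 to 0.091), Tm7sf2 (-0.0044 to 0.12), Lbr (-0.012 to 0.050), Hsd17b7 (-0.030 to 0.14), Sc5d (-0.037 to 0.12), Dhcr7 (-0.065 to 0.15), Insig1 (-0.15 to 0.091), Insig2 (-0.048 to 0.098), Srebf2 (-0.017 to 0.041), Stard4 (-0.100 to 0.070), Npc1 (-0.0094 to 0.053) and Abcg1 (-0.21 to 0.052), and for Acly (-0.020 to 0.12), Acat1 (-0.047 to 0.0049), Fnta (-0.021 to 0.10) and Abca7 (-0.033 to 0.069) outside the 28. The cause was not tested. A p that misses the threshold does not show equal expression: the 95% intervals of the 28 genes still hold log2 differences from -0.40 to 0.57.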
